A study of Mus musculus with 4 samples.

Results

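The insulin-like growth factor (IGF) genes described here were Igf1, its receptor Igf1r and the binding-protein genes Igfbp2, Igfbp3, Igfbp4, Igfbp5, Igfbp6 and Igfbp7, which were 8 of the 31054 features counted. The rule that picked them was their names alone, without a threshold on measured values, although earlier results of these data were known when they were picked. Single-cell RNA sequencing had been performed on the stromal vascular fraction (SVF), the part of fat tissue left after removal of adipocytes, from gonadal white adipose tissue (gWAT) of male mice aged 18 months. All of the mice carried p16-CreERT2 and R26-LSL-tdTomato, in which tamoxifen switches on tdTomato (Tom) permanently in cells with an active p16 promoter, and all had received tamoxifen, so that Tom marks the cells in which the p16 promoter was active at the time of treatment. The number of mice behind each library was not given in the sources used here. The 4 libraries were sorted by CD45 and Tom and are called by their labels: CD45-Tom+ and CD45-Tom- made up one pair, and CD45+Tom+ with CD45+Tom- the other. There was a single library per group, so no test between groups could be made, and every 95% interval given in square brackets covers counting error only.

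IGF1 is a secreted growth factor that acts through the receptor tyrosine kinase IGF1R. In the circulation and in tissue most of it is held by IGF-binding proteins, which carry it, protect it or keep it from the receptor, and proteases such as PAPP-A cleave some of these proteins and free the ligand. In fat, adipose progenitor cells (APCs) and macrophages are known sources of IGF1, and several binding proteins are counted among the secreted products of senescent cells.

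All 8 genes lie on different parts of the mouse genome (GRCm38) except for a pair: Igfbp2 at chr1:72824503-72852474 on the plus strand and Igfbp5 at chr1:72857932-72874884 on the minus strand lie 5457 bases apart. Igf1 lies at chr10:87858265-87937042 and overlaps an antisense gene, Igf1os. Igfbp7 at chr5:77349240-77408041 overlaps Polr2b on the opposite strand. The sequences below are the 250 bases before the RefSeq start sites (GRCm38.p6), 5′ to 3′ on the gene's own strand, of Igfbp3, Igfbp4, Igfbp5 and Igfbp6, shown because the comparisons of stromal groups and of Tom+ with Tom- cells below turn on them. Capitals mark the matches to 4 short motifs searched on both strands, namely the TATA box (TATAAA), its TATATA form, the TTTAAA form and the CCAAT box.
Igfbp3, chr11:7213924-7214173, minus strand: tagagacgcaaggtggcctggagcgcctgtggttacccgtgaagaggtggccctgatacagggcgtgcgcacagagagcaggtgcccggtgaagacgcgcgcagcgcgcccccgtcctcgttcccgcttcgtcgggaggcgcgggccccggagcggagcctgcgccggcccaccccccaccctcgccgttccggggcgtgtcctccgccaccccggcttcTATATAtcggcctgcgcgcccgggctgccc
Igfbp4, chr11:99040994-99041243, plus strand: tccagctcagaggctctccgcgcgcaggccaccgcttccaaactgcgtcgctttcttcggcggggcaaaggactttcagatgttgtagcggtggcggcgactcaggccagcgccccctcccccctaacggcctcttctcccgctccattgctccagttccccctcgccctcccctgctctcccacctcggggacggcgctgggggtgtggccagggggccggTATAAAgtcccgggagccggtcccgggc
Igfbp5, chr1:72874866-72875115, minus strand: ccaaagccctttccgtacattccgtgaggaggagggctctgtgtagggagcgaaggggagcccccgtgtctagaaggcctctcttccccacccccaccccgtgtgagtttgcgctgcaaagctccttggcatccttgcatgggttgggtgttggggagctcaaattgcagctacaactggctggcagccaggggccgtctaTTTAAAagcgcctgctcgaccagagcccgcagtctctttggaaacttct
Igfbp6, chr15:102143936-102144185, plus strand: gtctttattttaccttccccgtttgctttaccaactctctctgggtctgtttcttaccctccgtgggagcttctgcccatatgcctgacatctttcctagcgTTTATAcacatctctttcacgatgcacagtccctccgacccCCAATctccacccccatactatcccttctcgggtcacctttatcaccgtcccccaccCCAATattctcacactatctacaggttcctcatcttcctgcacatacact

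The Igfbp3 window held TATATA at -30 to -25 from the start site, and the Igfbp4 window held TATAAA at -28 to -23. The Igfbp5 window held neither, and had TTTAAA at -49 to -44. The Igfbp6 window held CCAAT at -107 to -103 and again at -50 to -46, and TATAAA on the reverse strand at -148 to -143. Of 32851 promoter windows of the same length in the RefSeq table, 12.4% held TATAAA, 5.25% TATATA, 12.1% TTTAAA and 33.8% CCAAT. The windows also differed in base composition, with 73.2% G and C in Igfbp3, 69.2% in Igfbp4, 58.8% in Igfbp5 and 49.6% in Igfbp6, against a median of 52.4% over all windows.

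Igfbp5 was also the member that the study measured by quantitative PCR, and the paper reports it as higher in Tom+ than in Tom- APCs of old mice. Its primers are shown since they give the stretch of the transcript which that assay reads.
Igfbp5 forward primer: agacaggaatccgaacaaggc
Igfbp5 reverse primer: gtagaatcctttgcggtcaca

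In the 6006-base transcript Igfbp5-201, the forward primer crossed the junction of exons 2 and 3 and the reverse primer lay in exon 3, at chr1:72863155-72863175 of GRCm38, for an amplicon of 126 bases. Its end lay 4589 bases from the 3′ end of the transcript, and the libraries described here were made from 3′ ends.

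The libraries held 33567 cell barcodes in all, with 139397501 unique molecular identifiers (UMIs) in CD45-Tom+, 110410319 in CD45-Tom-, 64083756 in CD45+Tom+ and 136459745 in CD45+Tom-. After filtering, 13878 cells were kept, between 1927 and 4391 per library, with median UMI counts between 18331 and 19516. The transgene followed the Tom labels, at 713 and 714 UMIs per 1000000 UMIs of all genes (CPM) in the Tom+ libraries against 15.8 and 18.7 CPM in the Tom- libraries. The CD45 labels did not part leukocytes from stroma: Ptprc, the gene of CD45, was found in 80.3% of cells labelled CD45-Tom+ and in 52.1% of cells labelled CD45+Tom-. The pairs labelled CD45- and CD45+ are therefore given side by side, and are not read as stromal and immune fractions. Barcodes also recurred between libraries. Of the kept cells, 15.6% in CD45-Tom+, 38.8% in CD45-Tom-, 11.4% in CD45+Tom+ and 29.7% in CD45+Tom- had a barcode found in another library, and between the Tom- libraries 4394 of all barcodes were shared. Ratios of Tom+ to Tom- cells were recomputed without these cells in APC-like cells and, for Igfbp3, in a further stromal cluster described below. Those of Igfbp5 in APC-like cells labelled CD45- and of Igfbp3 in that cluster are given both ways. Ratios of other groups were not recomputed without them.

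Cells were clustered without the IGF genes, and 22 of 29 clusters were named from marker genes. APC-like cells (Pdgfra, Dcn, Col1a1) numbered 261, 1533, 107 and 1716 when listed as the 2 libraries labelled CD45- and then the 2 labelled CD45+, Tom+ before Tom- in each, the order of all values from here on. Within them were an interstitial group led by Pi16 and Sema3c, a committed group, an Sfrp1-led group and an Inmt-led group. A further stromal cluster of 773 cells led by Cxcl13 and Cxcl5 raised all 9 APC markers but also 9 of 10 mesothelial markers, so it was left unnamed and is called the Cxcl13/Cxcl5-led cluster. The Inmt-led group made up 44.4%, 41.7%, 44.9% and 43.1% of APC-like cells, the committed group 32.2%, 27.1%, 29.0% and 28.4%, the Sfrp1-led group 18.4%, 25.4%, 23.4% and 22.7%, and the interstitial group 4.2%, 4.2%, 2.8% and 4.5%. Values are given where a group had at least 50 cells in a library, which left the interstitial and Sfrp1-led groups with values in the Tom- libraries only.

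B cell-like cells were taken as the background for these genes. Whether their UMIs came from free RNA, from doublets or from the cells themselves was not tested. In B cell-like cells Igfbp7 stood at 10.8, 45.8, 7.17 and 39.4 CPM and Igfbp4 at 15, 36.6, 8.96 and 36.6 CPM. Both were higher in the Tom- libraries, where stromal cells (APC-like, mesothelial-like and the Cxcl13/Cxcl5-led cluster) supplied 72.1% and 67.5% of UMIs, than in the Tom+ libraries, where they supplied 13.9% and 13.4%. Low levels in leukocytes are read against these values below.

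**Figure D1:**
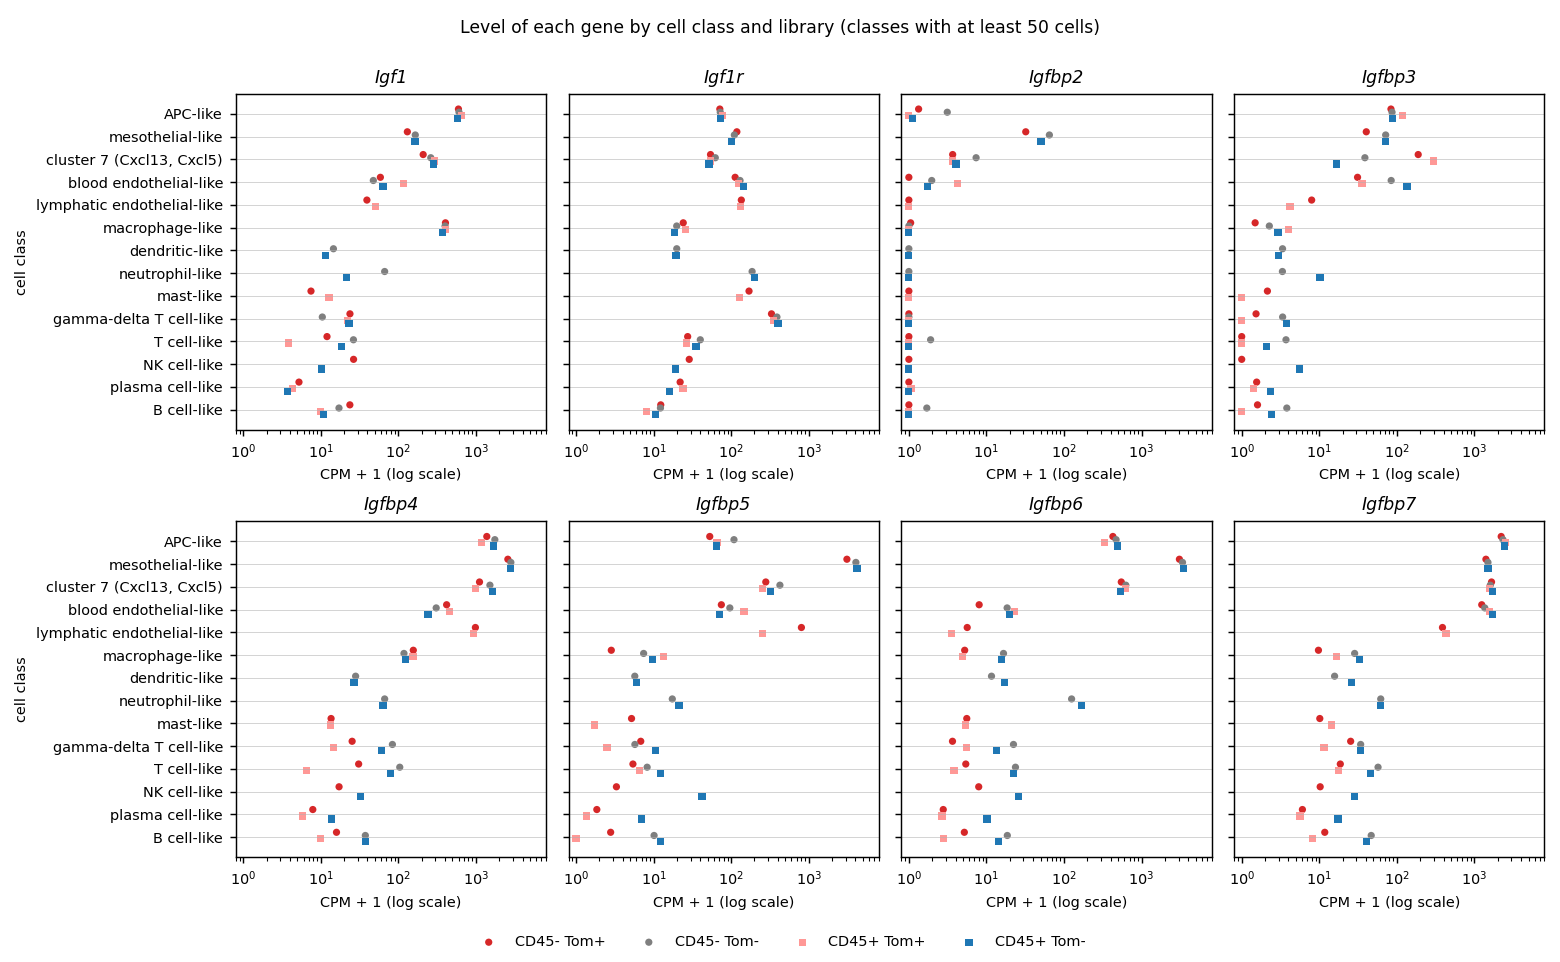
Level of the 8 genes (CPM + 1, logarithmic axis) in cell classes with at least 50 cells in a library, 1 point per library. Igfbp2, Igfbp4, Igfbp5 and Igfbp6 were highest in mesothelial-like cells, Igf1 stood in both APC-like and macrophage-like cells, and Igf1r was highest in gamma-delta T cell-like cells.

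Igf1, the ligand, was found in progenitors and in macrophages. Its level in APC-like cells was 596, 606, 647 and 577 CPM, and in macrophage-like cells it was 405, 400, 403 and 371 CPM. The APC-like level was the higher in all 4 libraries, and both were far above the B cell-like level of 22.8, 16.2, 8.96 and 9.97 CPM. Of APC-like cells 81.3% to 89.5% held an Igf1 UMI, and of macrophage-like cells 80.4% to 87.1%, against 5.41% to 14.3% of B cell-like cells, whose median UMI count was lower, between 5295.5 and 6506. After each cell was thinned to 2000 UMIs, the shares were 47.3% to 53.3%, 42.9% to 50.1% and 1.35% to 4.59%. Among macrophage-like clusters, the one led by Marco and Vsig4, genes of resident macrophages, had 630, 539, 629 and 553 CPM, the Mmp12-led cluster 357, 419, 388 and 373 CPM and the Gpnmb-led cluster 344, 307, 333 and 286 CPM. The Marco-led cluster was the highest of the macrophage-like clusters in every library.

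Among progenitor groups Igf1 was graded. In the Tom- libraries it stood at 853 and 876 CPM in the Sfrp1-led group, 654 and 595 CPM in the committed group, 421 and 406 CPM in the Inmt-led group and 98.3 and 89.4 CPM in the interstitial group. The Sfrp1-led level was 2.03 and 2.16 times that of the Inmt-led group, and the interstitial level was 0.23 and 0.22 times it, a log2 ratio of -2.10 [-2.33, -1.87] and -2.18 [-2.40, -1.97]. The Cxcl13/Cxcl5-led cluster had 208, 261, 291 and 284 CPM, and mesothelial-like cells had 130, 165 and 163 CPM in the 3 libraries with enough of them. Igf2, the other ligand gene, reached at most 1.71 CPM in any class median.

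Igf1r, the receptor, had another distribution. It was highest in gamma-delta T cell-like cells, at 331, 389, 349 and 401 CPM, with a UMI in 79% to 84% of them, against 4.73% to 7.65% of B cell-like cells, where the level was 7.17 to 11.4 CPM. In other T cell-like cells it stood at 26.5, 39.0, 25.3 and 34.1 CPM, in APC-like cells at 70.5, 71.4, 76.1 and 72.4 CPM, and in macrophage-like cells at 23.1, 18.9, 25.0 and 17.6 CPM. After thinning, 44% to 50% of gamma-delta T cell-like cells and at most 2.04% of B cell-like cells held one. Neutrophil-like cells had 185 and 199 CPM in the Tom- libraries, mast-like cells 169 and 128 CPM in the Tom+ libraries, and blood endothelial-like cells 112, 129, 123 and 145 CPM. The order of mast-like, lymphatic and blood endothelial-like cells could not be told from their intervals in most libraries. Within progenitors the Inmt-led group had 94.3, 99.6 and 93.8 CPM and the committed group 55.1, 50.3 and 51.2 CPM, in the 3 libraries with enough cells. The macrophage-like and APC-like cells that held most Igf1 were thus low in Igf1r beside the gamma-delta T cell-like cells.

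**Figure D2:**
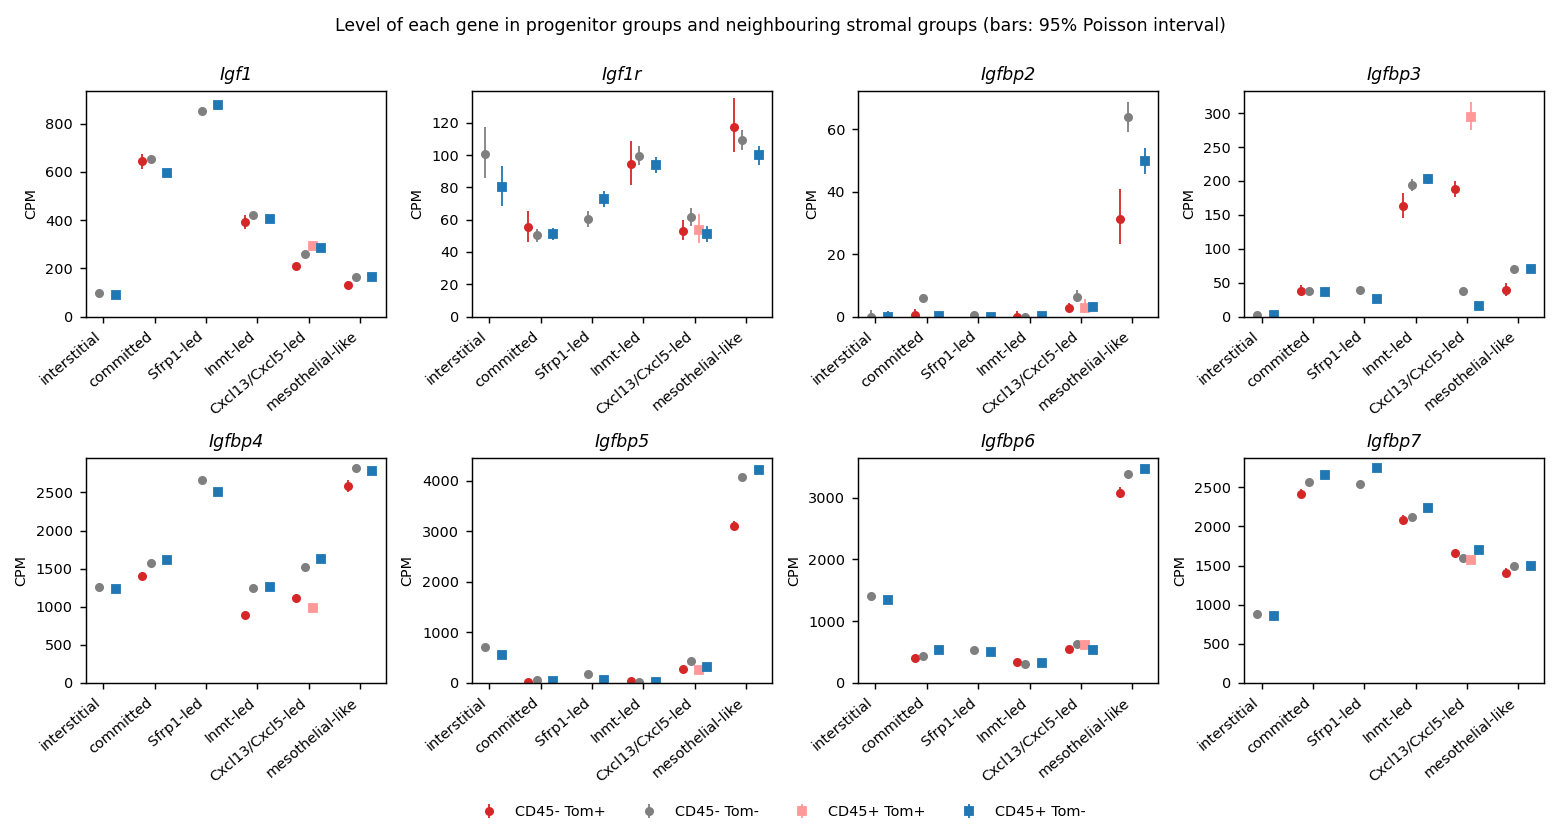
Level of the 8 genes (CPM) in progenitor groups, the Cxcl13/Cxcl5-led cluster and mesothelial-like cells, 1 point per library with its 95% Poisson interval. Igfbp5 and Igfbp6 were higher in the interstitial group than in the other progenitor groups, and among progenitor groups Igfbp3 was highest in the Inmt-led group and Igfbp7 lowest in the interstitial group.

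Igfbp2, a binding protein with a preference for IGF2, was found mostly in mesothelial-like cells, the lining cells of the peritoneal surface. They had 31.2, 63.9 and 49.7 CPM, with a UMI in 34.4%, 39.3% and 36.2% of cells. The next class was the Cxcl13/Cxcl5-led cluster at 2.67 to 6.36 CPM, and in the committed progenitors of the CD45-Tom- library it was 5.81 CPM, held by 0.7% of cells. The interstitial progenitors had no Igfbp2 UMI in either Tom- library.

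Igfbp5, which is bound in extracellular matrix and is often listed among senescence-associated secreted factors, was highest in mesothelial-like cells as well, at 3111, 4061 and 4205 CPM. Of these cells 95% to 97% held a UMI, against 0% to 8.11% of B cell-like cells. Interstitial progenitors followed with 716 [676, 758] and 560 [528, 593] CPM in the Tom- libraries, where the Inmt-led group had 18.4 and 23.2 CPM, a ratio of 38.8 and 24.1. Lymphatic endothelial-like cells had 805 CPM in CD45-Tom+ and 250 CPM in CD45+Tom+, the Tom+ libraries that held enough of them. Of these cells 41 of 178 and 9 of 86 held at least 10 Igfbp5 UMIs each, with 98.4% and 89.1% of the UMIs. With those left out the level was 16.1 and 30.4 CPM. The Cxcl13/Cxcl5-led cluster had 279, 425, 252 and 322 CPM. APC-like cells as a whole had only 52.0, 108, 64.6 and 64.5 CPM, of the order of blood endothelial-like cells at 73.8, 95.3, 145 and 69.8 CPM.

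Igfbp6, another binding protein with a preference for IGF2, had the same 2 high groups. Mesothelial-like cells stood at 3079, 3376 and 3454 CPM and interstitial progenitors at 1401 and 1338 CPM, with a UMI in 100% of the cells of both. The interstitial level was 4.47 and 4.11 times that of the Inmt-led group, a log2 ratio of 2.16 [2.08, 2.24] and 2.04 [1.97, 2.11]. The Cxcl13/Cxcl5-led cluster had 548, 627, 615 and 531 CPM, the Sfrp1-led group 531 and 492 CPM, the committed group 401, 443 and 525 CPM and the Inmt-led group 345, 313 and 325 CPM. Outside the stroma, neutrophil-like cells had 124 [93.2, 163] and 166 [133, 204] CPM, in 40% and 35.8% of cells. B cell-like cells of those libraries had 17.6 and 13.3 CPM, in 11.5% and 9.12% of cells. After thinning the shares were 23.5% and 24.4% of neutrophil-like cells against 4.35% and 4.05% of B cell-like cells. For every Igfbp7 UMI, neutrophil-like cells held 2.04 [1.25, 3.40] and 2.73 [1.81, 4.2] Igfbp6 UMIs, whereas B cell-like cells held 0.38 and 0.34 and APC-like cells held 0.20 in both libraries. The intervals of the neutrophil-like ratios lay above the B cell-like ratios. Mesothelial-like cells, with at most 1496 CPM of Igfbp7, and interstitial progenitors, with 885 and 858 CPM, also held more Igfbp6 than Igfbp7. The source of the UMIs in neutrophil-like cells was not tested.

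Igfbp4, which is cleaved by PAPP-A and mostly restrains IGF action, was broad in the stroma. Mesothelial-like cells had 2586, 2827 and 2780 CPM, the Sfrp1-led group 2670 and 2502 CPM, the committed group 1404, 1579 and 1613 CPM, the Inmt-led group 887, 1245 and 1265 CPM and the interstitial group 1259 and 1227 CPM. The interstitial and Inmt-led groups did not differ beyond their intervals in either Tom- library. Lymphatic endothelial-like cells had 986 and 924 CPM, and blood endothelial-like cells 419, 307, 452 and 241 CPM. Macrophage-like cells had 155, 117, 154 and 124 CPM, and in them the ratio of Igfbp4 to Igfbp7 UMIs was 17.7, 4.25, 9.76 and 3.90, against 1.39, 0.80, 1.25 and 0.93 in B cell-like cells. Within macrophages the Gpnmb-led cluster had 193, 204, 198 and 191 CPM and the Mmp12-led cluster 34.5, 48.2, 35.4 and 53.4 CPM.

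Igfbp3, the main carrier of IGF1 in blood, was highest among progenitor groups in the Inmt-led group, at 163, 194 and 203 CPM. A UMI was found in 36.2% to 41.0% of its cells. Cells with at least 10 UMIs, 8.6%, 9.8% and 12.2% of the group, held 73.0%, 71.4% and 76.5% of its Igfbp3 UMIs. Committed progenitors had 38.0, 37.1 and 35.8 CPM, lower than the Inmt-led group by 4.30, 5.23 and 5.67 times. Outside these groups, the Cxcl13/Cxcl5-led cluster had 188, 37.8, 295 and 15.8 CPM. The Rbp7-led blood endothelial-like cluster had 40.8 to 138 CPM and mesothelial-like cells 39.4 to 70.8 CPM. Interstitial progenitors had 1.81 and 2.38 CPM, close to the 2.82 and 1.42 CPM of B cell-like cells in those libraries. Igfbp7, a secreted protein that binds IGFs weakly and is known from vessel walls, had 2217, 2336, 2520 and 2450 CPM in APC-like cells and 1244, 1362, 1576 and 1698 CPM in blood endothelial-like cells. The interstitial group was again apart, at 885 and 858 CPM, against 2421, 2567 and 2661 CPM in the committed group. Lymphatic endothelial-like cells had 387 and 430 CPM. Macrophage-like cells, at 8.76, 27.6, 15.8 and 31.7 CPM, were within the range of B cell-like cells, and no Igfbp7 expression was read from them.

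The interstitial group thus carried high Igfbp5 and Igfbp6 with low Igf1, Igfbp3 and Igfbp7, and the Inmt-led group carried the opposite for Igfbp3, Igfbp5 and Igfbp6. These contrasts set clusters against each other within 1 library at a time and are descriptions. They depended on which cells were given the name. At a finer clustering the name covered 1129 cells, of which 157 had been interstitial, 742 Inmt-led and 223 Sfrp1-led, and the median level over libraries was then 313 CPM for Igf1, 97.4 for Igfbp3, 121 for Igfbp5, 687 for Igfbp6 and 1856 for Igfbp7. The Pi16-led cluster at that setting held 65 and 78 cells in the Tom- libraries, with the same UMI counts as the interstitial group. Its 716 and 560 CPM of Igfbp5 and 1.81 and 2.38 CPM of Igfbp3 are therefore not a separate result. With a looser cell filter the name covered 332 cells, 155 of them interstitial before, with 216 CPM of Igf1, 26.6 of Igfbp3, 351 of Igfbp5, 1238 of Igfbp6 and 1338 of Igfbp7.

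The UMIs of Igfbp5 were unevenly spread over progenitors. Among APC-like cells, 9 of 261 (3.4% [1.6, 6.4]), 62 of 1533 (4.0% [3.1, 5.2]), 4 of 107 (3.7%) and 60 of 1716 (3.5%) held at least 10 Igfbp5 UMIs each. These few cells held 75.8%, 84.3%, 70.3% and 75.6% of all Igfbp5 UMIs of APC-like cells. A single cell held 117, 428, 53 and 229 UMIs, which was 37.7%, 11.3%, 30.3% and 8.4% of the total. Without the rich cells the level was 13, 17.8, 20.6 and 16.4 CPM. In the Tom- libraries 27 of the 62 and 25 of the 60 rich cells were interstitial, 18 and 12 were Sfrp1-led and 11 and 14 were committed. Markers of mesothelial cells, the class highest in Igfbp5, summed to 258, 170, 241 and 217 CPM in the rich cells and to 167, 187, 179 and 185 CPM in the rest. APC markers summed to 28187, 36456.5, 30515 and 42651 CPM in the rich cells and to 37461, 42185, 42963 and 42409 CPM in the rest. Plasma cell markers summed to 2803, 185, 13229 and 144 CPM against 1734, 166, 1852 and 158 CPM. Whether the rich cells were mixed with other cells was not tested. In mesothelial-like cells 79.7% to 83.4% were rich by the same measure, in interstitial progenitors 41.5% and 32.1%, and in the Sfrp1-led group 4.6% and 3.1%.

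**Figure D3:**
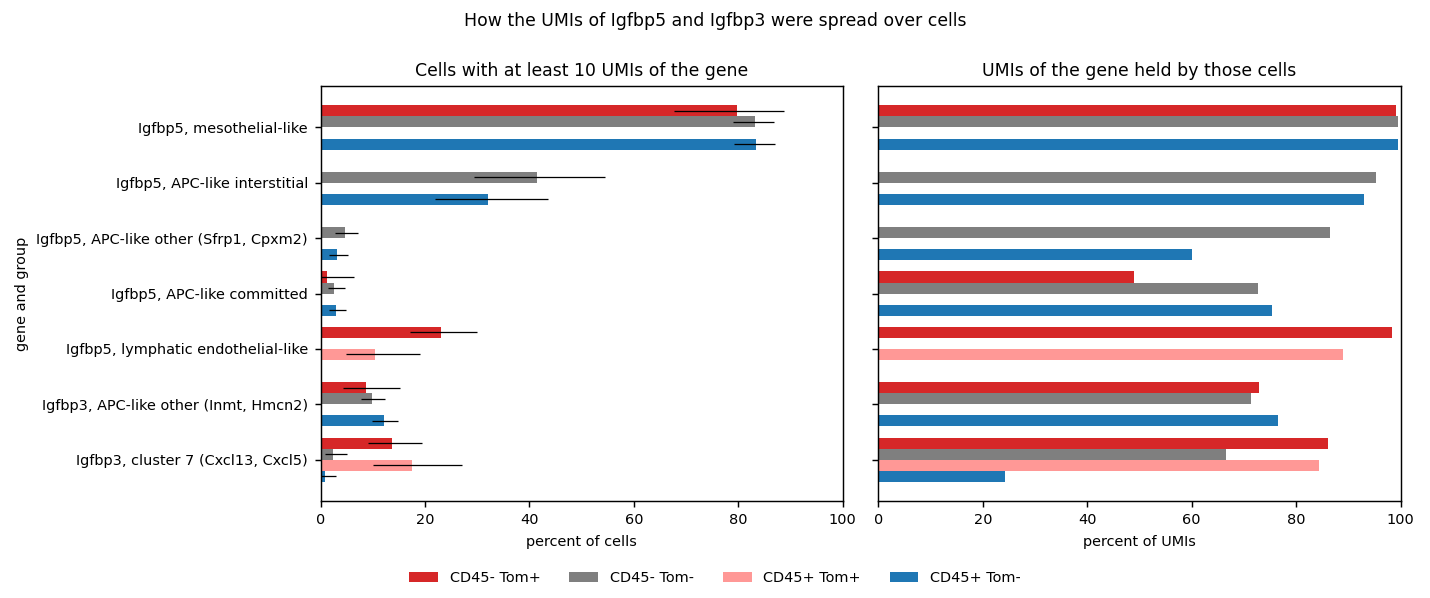
Share of cells with at least 10 UMIs of Igfbp5 or Igfbp3 (left, percent of cells with 95% binomial interval) and the share of that gene's UMIs they held (right, percent of UMIs), by group and library. Most mesothelial-like cells were rich in Igfbp5, whereas few committed and Sfrp1-led progenitors were and those few held most of the UMIs.

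Tom+ and Tom- cells were then compared within classes, which asks whether cells with high p16 differed in these genes. A gene was counted as past 2 times where the log2 ratio of CPM was at least 1 in size, and only genes averaging 5 CPM or more over the pair were read. Of the members, 7 reached that average in APC-like cells. In the pair labelled CD45-, 1 of the 7 passed, Igfbp5, where 1.66% of all genes did, and in the pair labelled CD45+, 0 of the 7 passed, where 1.58% did. Igf1 was at 596 against 606 CPM, a log2 ratio of -0.02 [-0.08, 0.03], in the first pair and 647 against 577 CPM, 0.16 [0.09, 0.23], in the second, where it was -0.16 with a looser cell filter. Igf1r, with -0.02 and 0.07, and Igfbp7, with -0.08 and 0.04, differed little between Tom+ and Tom- cells. Without barcodes found in another library, the sign changed for Igf1 and Igfbp7 in the first pair and for Igf1r in the second. The median over the members was -0.08 and 0.04, and over all genes -0.03 and -0.04.

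Igfbp5 in APC-like cells stood at 52.0 CPM in CD45-Tom+ against 108 CPM in CD45-Tom-, a log2 ratio of -1.05 [-1.22, -0.88], and at 64.6 against 64.5 CPM in the pair labelled CD45+, 0.00 [-0.23, 0.22]. An Igfbp5 UMI was found in 15.3% of cells against 23.5%, and 17.8% against 23.3%. Within the committed group, of 84 and 416 cells, the CD45- pair had 20.8 against 54.9 CPM, -1.40 [-1.84, -0.99], the only member past 2 times there, where 2.89% of genes were. A single Tom+ cell held 25 of the 51 UMIs, with APC markers at 3001 CPM against 42400 CPM in the rest, and without the 1 and 11 cells with at least 10 UMIs the committed levels were 10.7 and 15.5 CPM. Within the Inmt-led group, of 116 and 640 cells, it ran the other way, at 32.0 against 18.4 CPM, 0.79 [0.36, 1.21], and none of the members passed where 2.14% of genes did. Without the Igfbp5-rich cells described above, the levels in the CD45- pair were 13 and 17.8 CPM. The log2 ratio was -0.23 when cells with a barcode found in another library were left out and -0.57 as the mean of each cell's own CPM. Neither value lay within the counting interval of the ratio.

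Igfbp4 stayed below 2 times but differed in the same direction in each stromal group compared. Its log2 ratio was -0.34 [-0.38, -0.31] and -0.51 [-0.56, -0.46] in APC-like cells, -0.45 and -0.72 in the Cxcl13/Cxcl5-led cluster, and, in the pair labelled CD45- only, -0.17 in committed progenitors, -0.49 in Inmt-led progenitors and -0.13 in mesothelial-like cells. In APC-like cells it stayed between -0.45 and -0.30 in the first pair and between -0.53 and -0.32 in the second over 9 other ways of processing. Igfbp6 in APC-like cells was -0.14 and -0.57 [-0.67, -0.47]. Beside these, markers of plasma cells summed to 1771 against 167 CPM and 2601 against 157 CPM in the Tom+ and Tom- APC-like cells of the 2 pairs, and macrophage markers to 422 against 165 CPM and 195 against 164 CPM. Their part in the ratios was not tested.

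**Figure D4:**
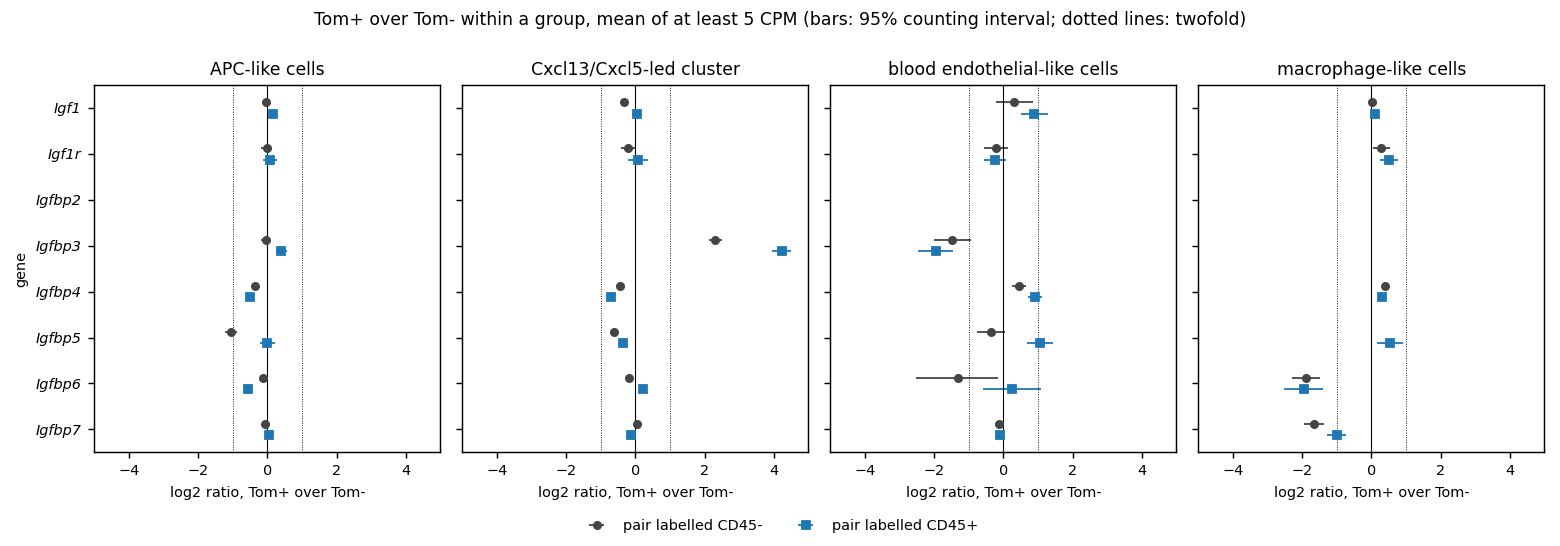
Log2 ratio of CPM in Tom+ over Tom- cells for each gene averaging 5 CPM or more, in 4 groups, for the pairs labelled CD45- and CD45+, with 95% counting intervals and dotted lines at 2 times. Igfbp3 lay to the right in the Cxcl13/Cxcl5-led cluster and to the left in blood endothelial-like cells in both pairs.

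The largest ratio of any member in the stroma was that of Igfbp3 in the Cxcl13/Cxcl5-led cluster. Its level was 188 [177, 199] CPM in CD45-Tom+ against 37.8 [33.5, 42.4] CPM in CD45-Tom-, and 295 [275, 317] CPM in CD45+Tom+ against 15.8 [13.1, 18.8] CPM in CD45+Tom-. Both Tom+ libraries were above both Tom- libraries. The log2 ratios were 2.31 [2.12, 2.51] and 4.23 [3.95, 4.51], and Igfbp3 was the only member past 2 times, where 1.68% and 3.91% of genes were. Ordered from the highest to the lowest log2 ratio, with its sign, Igfbp3 ranked 25 of 9794 genes and 14 of 9730. A UMI was found in 40.8% of cells against 16.3%, and in 60.5% against 16.7%, and after thinning in 16.1% against 4.0% and in 24.4% against 2.9%. Cells with at least 10 Igfbp3 UMIs numbered 25 of 184 against 6 of 257, and 15 of 86 against 2 of 246. These cells held 86.1% and 66.7% of the cluster's Igfbp3 UMIs in the first pair, and 84.5% and 24.2% in the second. With them left out the levels were 31.8 against 12.9 CPM and 59.9 against 12.0 CPM. Without barcodes found in another library the ratios were 1.12 and 3.34. At a finer clustering the cluster parted into a Cxcl13-led group, with 45.7 CPM in CD45-Tom+ against 33.0 CPM in CD45-Tom-, and a Clu- and Cxadr-led group, with 335 against 44.0 CPM, log2 ratios of 0.47 [0.10, 0.84] and 2.93 [2.68, 3.18]. Over the whole cluster, mesothelial markers summed to 1176 against 1261 CPM and 1103 against 1105 CPM. APC markers summed to 23601 against 19884 CPM and 25681 against 21386 CPM, and plasma cell markers to 1405 against 106 CPM and 1637 against 105 CPM. In the Igfbp3-rich cells mesothelial markers summed to 2190, 1038, 1774 and 2318 CPM, and in the rest to 958, 1267, 897 and 1096 CPM. APC markers summed to 30061, 33337, 32928 and 24995 CPM in the rich cells and to 22211, 19524, 23452 and 21358 CPM in the rest. Whether these had a part in the ratio was not tested.

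In blood endothelial-like cells Igfbp3 went the other way, with 30.2 against 83.6 CPM, -1.47 [-2.02, -0.94], and 34.5 against 134 CPM, -1.96 [-2.48, -1.47]. In the first pair Igfbp6 also passed 2 times, at -1.31 [-2.54, -0.15], and in the second Igfbp5 did, at 1.06 [0.69, 1.43]. Igfbp6 stood at 7.06 to 22.2 CPM here, near the 1.79 to 17.6 CPM of B cell-like cells, in which it was also lower in the Tom+ libraries. Its ratio is therefore not read as a change in blood endothelial-like cells. In each pair 2 of 7 members passed, where 11.5% and 13.7% of all genes did. These cells also differed in markers of other classes: APC markers summed to 1098 against 726 CPM and 2848 against 675 CPM, and plasma cell markers to 2443 against 290 CPM and 2637 against 218 CPM. The class was also made up of other clusters in Tom+ than in Tom- cells. A cluster led by Vwf and Lep supplied 21 of 102 Tom+ cells against 3 of 114 Tom- cells in the first pair and 57 of 99 against 4 of 145 in the second, and its Igfbp3 level was 41.1 CPM in CD45+Tom+. In the Rbp7-led cluster alone Igfbp3 was at 40.8 against 86.0 CPM in the first pair, a log2 ratio of -1.08, and in the second at 138 CPM in CD45+Tom-, with too few Tom+ cells to compare.

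In macrophage-like cells Igf1 had log2 ratios of 0.02 and 0.12. Igfbp6 (-1.88 and -1.94) and Igfbp7 (-1.65 and -1.01) passed 2 times, where 2.27% and 2.58% of genes did. Both genes were within the range of B cell-like cells, in which they were also lower in the Tom+ libraries, and their ratios are not read as a change in macrophages. Igfbp4 was 0.40 and 0.32 over the class, but -0.08 and 0.05 in the Gpnmb-led cluster, -0.48 and -0.59 in the Mmp12-led cluster and 0.10 and -0.60 in the Marco-led cluster, so the sign over the class was not that of each of its clusters. In the Marco-led cluster of the pair labelled CD45+, 3 of 7 members were higher past 2 times and 1 was lower, where 4.78% of genes passed either way. A single Tom+ cell held all 25 Igfbp3 UMIs and 93 of the 96 Igfbp5 UMIs of that cluster, and its APC markers summed to 14987 CPM. Without it Igfbp5 was at 1.71 against 13.1 CPM and Igfbp3 at 0 against 2.31 CPM, whereas Igf1r, at 25.2 against 8.09 CPM, kept a log2 ratio of 1.57 [0.78, 2.40]. In the pair labelled CD45- Igf1r was at 17.0 against 13.1 CPM there, 0.38 [-0.29, 1.08]. The Tom+ libraries held more cells of the Gpnmb-led cluster, with 434 of 758 and 212 of 391 macrophage-like cells, against 169 of 569 and 230 of 729 in the Tom- libraries. In mesothelial-like cells, compared in the pair labelled CD45- only, Igfbp2 was at 31.2 against 63.9 CPM, -1.04 [-1.47, -0.63], 1 of 8 members past 2 times where 2.27% of genes were. Cells with at least 10 Igfbp2 UMIs numbered 0 of 64, which allows a share of up to 4.69% by 3 counts and 5.60% by the exact interval, against 18 of 369, or 4.88% [2.92, 7.60], which held 52.1% of the Igfbp2 UMIs there. These shares did not differ beyond their intervals.

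The other genes of the IGF pathway list, 33 in number, were read for the same classes. Of the 25 tested in APC-like cells, 0 passed 2 times in the pair labelled CD45-, where 1.66% of all genes did. In the pair labelled CD45+ 1 of the 25 passed, where 1.58% of all genes did. It was Pappa, the gene of the protease that cleaves Igfbp4, with 27.0 against 12.7 CPM, 1.08 [0.71, 1.44]. In the pair labelled CD45- its log2 ratio was -0.03 [-0.38, 0.32]. The median over the 25 was -0.09 and -0.12. No gene of the list passed in both pairs. Classes were ranked by their median over libraries. Of 35 list genes with at least 5 CPM in their highest class, 10 were highest in APC-like cells and 7 in mesothelial-like cells when named classes alone were ranked. With the unnamed clusters counted, Igfbp3 had its highest median in the Cxcl13/Cxcl5-led cluster. That cluster was above APC-like cells in 2 of 4 libraries, those labelled Tom+. Htra3, a secreted protease, was nearest to a progenitor marker, with 421 to 499 CPM in APC-like cells and 53.2 CPM in mesothelial-like cells, the next class, 8.83 times lower. Igfbp2, Igfbp5 and Igfbp6 were the other list genes at least 4 times higher in their highest class than in the next.

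Likeness of pattern was measured as Pearson's r of log2(CPM + 1) over 16 groups, among 10125 genes, and is a description across groups that share libraries. Genes most like Igf1 were Ctsl and Cd302 (both 0.95) and P4ha1 (0.94), and those most like Igf1r were Lysmd3, Plekhg1 and Sox13 (all 0.76). Igfbp2 was closest to Cdh3 (0.99), Evpl and Faim2 (both 0.96), and Igfbp6 to Wt1, Adgrd1 (both 0.97) and Chrd (0.96). Igfbp3 was closest to Myh11 (0.94), Plscr2 (0.92) and Ndrg2 (0.91), and Igfbp5 to Csrp2, Ppp2r5b and Efna5 (all 0.93). Igfbp4 was closest to Colec12 and Cald1 (both 0.98) and Cdk16 (0.97), and Igfbp7 to Osmr and Serpinh1 (both 0.99) and Amotl2 (0.98). Among the members themselves, Igfbp4 and Igfbp7 were most alike, at 0.95, followed by Igfbp3 and Igfbp7 at 0.87 and Igf1 and Igfbp4 at 0.85, whereas Igf1r stood at 0.15 to 0.37 with the others.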

How the data were processed

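Single-cell 3′ RNA libraries of 4 sorted SVF fractions were used. The authors deposited counts of UMIs per gene and barcode, made with Cell Ranger (version 3.0.2) against mm10. From these counts, cells with 1000 to 7000 genes and under 8% mitochondrial UMIs were kept and 1104 marked doublets were left out. Cells of all libraries were clustered together in scanpy 1.11.5 on 2000 variable genes without the IGF genes, with 30 principal components, 15 neighbours and Leiden resolution 1, and clusters were named from marker genes. UMIs were summed per group and library and given as CPM with exact Poisson intervals, shares with exact Clopper-Pearson intervals and ratios with conditional exact intervals, all at 95%. Groups with fewer than 50 cells in a library were left out. Shares were also computed after thinning each cell to 2000 UMIs. The scripts were tested on simulated data. No test between groups was possible with 1 library each. The members, the pathway list and the markers were chosen with earlier results of these data known, and the naming thresholds were set after the clusters were seen. Named genes were the 8 members, list genes past 2 times in both pairs or at least 4 times higher in 1 class than in the next, and the 3 genes most like each member; others were named after their values were seen.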

Additional observations from a re-analysis of the deposited data

Results flagged for a closer look

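The Tom+ to Tom- log2 ratio had opposite signs in the pairs labelled CD45- and CD45+ for 3 results, and in each the difference between the pairs was not tested. Igfbp6 in the Cxcl13/Cxcl5-led cluster was -0.19 in the first pair and 0.21 in the second. Igfbp7 in APC-like cells was -0.075 and 0.041. Igfbp7 in the Cxcl13/Cxcl5-led cluster was 0.055 and -0.11. All were below a factor of 1.5 in size.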

How the results depend on the processing

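Mesothelial-like cells were the highest class for 4 members under all 8 alternatives tried. Of the progenitor groups, the interstitial group was highest for 2 members, and for 1 at Leiden resolution 2, where the name covered more cells. The count of members past 2 times in APC-like cells of the pair labelled CD45- was 1, and was 0 with the looser cell filter (500 genes, 20% mitochondrial), at resolution 2, after thinning, as the mean of each cell's CPM, without shared barcodes and at the same mix of progenitor groups, and 2 with no CPM filter. In the pair labelled CD45+ it was 0, and 1 with no CPM filter. The Igfbp5 ratio in APC-like cells of the CD45- pair, -1.05, was -0.42 with the looser filter, -0.70 thinned, -0.57 as the mean of cells, -0.23 without shared barcodes and -0.80 at the same mix; in the CD45+ pair, 0.00, it was -0.80 thinned and -0.37 as the mean of cells. The Igfbp3 ratio in the Cxcl13/Cxcl5-led cluster of the CD45- pair, 2.31, was 1.03 with the looser filter and 2.07 as the mean of cells. It was 1.12 without shared barcodes, and at resolution 2 0.47 in the Cxcl13-led piece of the cluster and 2.93 in the Clu-led piece. In the CD45+ pair the ratio, 4.23, was 1.55 with the looser filter, 3.26 as the mean of cells and 3.34 without shared barcodes. It was 3.27 with doublets kept and 3.73 thinned. At resolution 2 it was 1.83 in the Cxcl13-led piece, and no ratio was given for the Clu-led piece. Both pieces had fewer CD45+Tom+ cells than the minimum for a group, so the 1.83 is not read. The cause was not tested. Of the ratios past 2 times, those recomputed were Igfbp5 in APC-like cells of the CD45- pair and Igfbp3 in the Cxcl13/Cxcl5-led cluster. None of these changed sign. The ratios past 2 times in other groups were not recomputed under the alternatives. Of the 14 ratios in APC-like cells, 9 changed sign under at least 1 alternative and 5 kept it: Igfbp4 and Igfbp6 in both pairs and Igfbp5 in the CD45- pair. In the CD45+ pair with the looser filter, Igfbp3 went from 0.41 to -0.38 and Igfbp7 from 0.04 to -0.28. Leaving out the lower-count copy of a shared barcode, and the alternatives for the Igfbp3 ratio, were added after the data were seen. No paired analysis was possible because each group had 1 library and no result came from a test. Depth limits the interstitial group, with 11 and 3 cells in the Tom+ libraries.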
